A study of Mus musculus with 6 samples.

Results

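Col10a1, Alpl, Phospho1, Enpp1, Ank, Spp1, Ibsp, Tgm2 and Vegfa are genes that hypertrophic chondrocytes use at the mineralising end of the growth plate. They were followed across mice lacking ATF6a, mice lacking ATF6b and wild type mice. All non-control probes whose RefSeq accession maps to these symbols were taken, which gave 12 probes for the 9 genes, out of 19122 genes tested and 20145 named on the array. All 9 genes passed the filter on dim probes, Ank only through its WT arrays. Ibsp, Tgm2 and Vegfa had 2 probes each and the other 6 genes had 1.

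The samples were tibial growth plates of untreated male C57BL/6J mice aged 4 weeks, taken by laser microdissection. They carried the genotype labels ATF6aKO (2 arrays), ATF6bKO (2 arrays) and WT (2 arrays). The labels give no deleted region, no promoter or Cre and no number of animals behind an array, so p-values measure only the spread between these arrays, which may be technical. ATF6a and ATF6b are related membrane-bound transcription factors of the endoplasmic reticulum, cut and released when unfolded protein accumulates there.

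A chondrocyte that stops dividing enlarges, secretes a distinct matrix built on type X collagen and then lets that matrix calcify. Mineral starts in matrix vesicles, where phosphatases supply phosphate, and its growth is held back by pyrophosphate outside the cell. Acidic glycoproteins bind the crystals, transglutaminase crosslinks the matrix, and vascular endothelial growth factor draws in the vessels that bring bone-forming and bone-resorbing cells.

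The promoters shown are those of the genes on which the results turn. For Alpl and Spp1, which had another start, the window shown is the one with matches. Which start these growth plates used was not measured. Col10a1, Alpl and Enpp1 were higher on the arrays of both knockouts, and Spp1 and Ibsp stood far apart on a single WT array. Each window runs from 250 bases before to 50 bases after a RefSeq transcript start, in the GRCm38.p6 build, 5′ to 3′ on the gene's own strand. The windows are chr10:34389731-34390030 (plus strand) for Col10a1, chr4:137766426-137766725 (minus strand) for a downstream start of Alpl, chr10:24712110-24712409 (minus strand) for Enpp1, chr5:104434861-104435160 (plus strand) for an upstream start of Spp1 and chr5:104299037-104299336 (plus strand) for Ibsp. Capitals mark every match, on either strand, to CCACG (the end of the ER stress response element that ATF6 contacts), TGACG (the core of cyclic AMP response elements, also bound by ATF6), TGTGGT (a RUNX motif) or TATAAA (the TATA box).
Col10a1: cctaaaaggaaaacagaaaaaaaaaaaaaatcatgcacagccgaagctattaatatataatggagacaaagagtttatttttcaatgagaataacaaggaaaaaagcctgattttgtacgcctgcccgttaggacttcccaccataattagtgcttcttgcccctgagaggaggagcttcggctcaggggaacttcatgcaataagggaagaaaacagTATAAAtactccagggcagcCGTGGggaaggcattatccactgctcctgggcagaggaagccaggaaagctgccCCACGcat
Alpl: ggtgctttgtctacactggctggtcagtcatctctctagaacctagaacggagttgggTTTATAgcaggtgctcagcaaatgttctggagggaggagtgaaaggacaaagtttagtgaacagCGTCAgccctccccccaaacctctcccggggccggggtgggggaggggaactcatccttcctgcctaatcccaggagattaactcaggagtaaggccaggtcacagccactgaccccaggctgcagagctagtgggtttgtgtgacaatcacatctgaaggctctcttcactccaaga
Enpp1: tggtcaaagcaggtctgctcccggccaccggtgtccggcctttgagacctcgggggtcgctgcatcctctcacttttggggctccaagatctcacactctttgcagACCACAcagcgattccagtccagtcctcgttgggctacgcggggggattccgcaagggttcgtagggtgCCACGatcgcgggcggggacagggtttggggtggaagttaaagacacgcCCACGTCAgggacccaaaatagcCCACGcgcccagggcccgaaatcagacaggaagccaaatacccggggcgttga
Spp1: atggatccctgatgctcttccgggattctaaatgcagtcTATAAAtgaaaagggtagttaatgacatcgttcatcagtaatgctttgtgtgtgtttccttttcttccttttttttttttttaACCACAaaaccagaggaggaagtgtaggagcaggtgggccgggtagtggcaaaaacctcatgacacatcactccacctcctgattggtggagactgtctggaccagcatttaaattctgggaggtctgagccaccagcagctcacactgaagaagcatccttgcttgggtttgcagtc
Ibsp: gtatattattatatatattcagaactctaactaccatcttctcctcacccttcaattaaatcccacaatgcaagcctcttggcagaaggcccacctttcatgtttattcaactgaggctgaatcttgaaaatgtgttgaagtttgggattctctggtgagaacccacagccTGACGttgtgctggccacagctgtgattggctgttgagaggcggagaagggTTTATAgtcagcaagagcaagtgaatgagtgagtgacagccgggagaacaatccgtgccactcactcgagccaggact

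The Col10a1 window held TATAAA with its first base at -32 from the start, and CCACG at -12 (as its reverse complement) and at 43. The Enpp1 window held CCACG at -75, -26 and -3, and the reverse complement of TGACG at -23 overlapped the match at -26. It also held TGTGGT, as its reverse complement, at -144. In Ibsp the TATAAA letters ran backwards at -28, an inverted TATA box that is well known from this promoter in the rat, and TGACG stood at -79. The Spp1 window held TGTGGT, as its reverse complement, at -128 and TATAAA at -211. The Alpl window held TGACG and TATAAA, both as reverse complements, at -128 and -192.

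RefSeq promoters were matched for 8 of the 9 genes, 11 windows in all, and Tgm2 was not among them. CCACG lay in 5 of the 11 windows, from 4 genes, against 32.8% of all 32851 mouse promoter windows of that length. The Phospho1 window (chr11:95824250-95824549, plus strand) held it 5 times, and both Vegfa windows held it too. TGACG lay in 5 of the 11 windows against 20.8% of all, TGTGGT in 2 against 16.8%, and TATAAA in 4 against 13.6%. The windows of Ank, of the upstream Alpl start and of the downstream Spp1 start held none of the 4. A match is a description of letters and not of bound protein.

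The 4 knockout arrays shared a slide scanned with a 2-channel protocol, while both WT arrays came from a different slide scanned with a 1-channel protocol. Knockout values came from the red channel, and WT values from the only channel scanned, which is named green. Against WT, slide, protocol, channel and genotype therefore cannot be told apart. Median background was 37 for knockouts and 17 for WT, and spots well above background made up 86.9% to 96.7% of each array. Arrays correlated at r of 0.970 to 0.988 among knockouts, 0.960 between the WT pair and 0.851 to 0.906 between knockout and WT. The Atf6 probe read 7.07 and 6.97 in ATF6aKO against 7.05 and 7.28 in WT (log2 difference -0.15 ± 0.16 SE, adjusted p 0.498). The Atf6b probe read 8.77 and 8.41 in ATF6bKO against 9.06 and 9.19 in WT (log2 difference -0.54 ± 0.21 SE, adjusted p 0.0824). Neither passed the test, and since the labels do not say which part of either gene was removed, a probe outside it would check nothing. The genotype names below are those of the labels.

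Levels are normalised log2 intensities taken after an offset of 50 was added, and a step of 1 doubles that offset intensity. For spots near background a fold is therefore smaller than the fold of the signal alone. Tests are limma fits with Benjamini-Hochberg adjustment over all genes tested, called below 0.05. A gene with 2 probes was tested by its brighter one, and the other probe was tested in a fit over all 24907 named probes. In ATF6aKO against WT, 6 of the 9 genes passed, where 42.7% of all genes passed, 20.3% higher and 22.3% lower. Of the 6, 3 were higher (Col10a1, Alpl, Enpp1) and 3 lower (Ank and, each by its brighter probe, Tgm2 and Vegfa). In ATF6bKO against WT, 5 of the 9 passed, where 37.6% of all genes passed, 17.3% higher and 20.3% lower. They were the same 3 higher, and Tgm2 and Vegfa lower, each by its brighter probe. The median log2 difference of the 9 genes was -0.69 in ATF6aKO and -0.90 in ATF6bKO, against medians of -0.03 and -0.05 over all genes. Each median of the 9 is the value of a single gene. In ATF6aKO that gene is Ank, which lay near background. In ATF6bKO it is Vegfa by its brighter probe, whose other probe read higher than in WT, so these medians give no direction for the 9 genes together. Both comparisons use the same WT arrays. Ank entered these counts only because its WT arrays, the highest, passed the filter on dim probes. With a filter that asked for all 6 arrays, Ank was left out and 5 of 8 genes passed in each knockout, 3 higher and 2 lower. Under that filter 7642 (ATF6aKO) and 6809 (ATF6bKO) of 16584 genes passed. Genes whose knockout arrays did not overlap WT numbered 7 in ATF6aKO (3 higher and 4 lower, Ank and Spp1 among the lower), where 73.2% of all genes did so, 34.6% higher and 38.6% lower. In ATF6bKO they were the 5 called genes (3 higher and 2 lower), where 72.8% of all genes did so, 33.3% higher and 39.5% lower. The counts of called genes moved in both knockouts when single arrays were left out, and their ranges are given in the closing section.

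**Figure D1:**
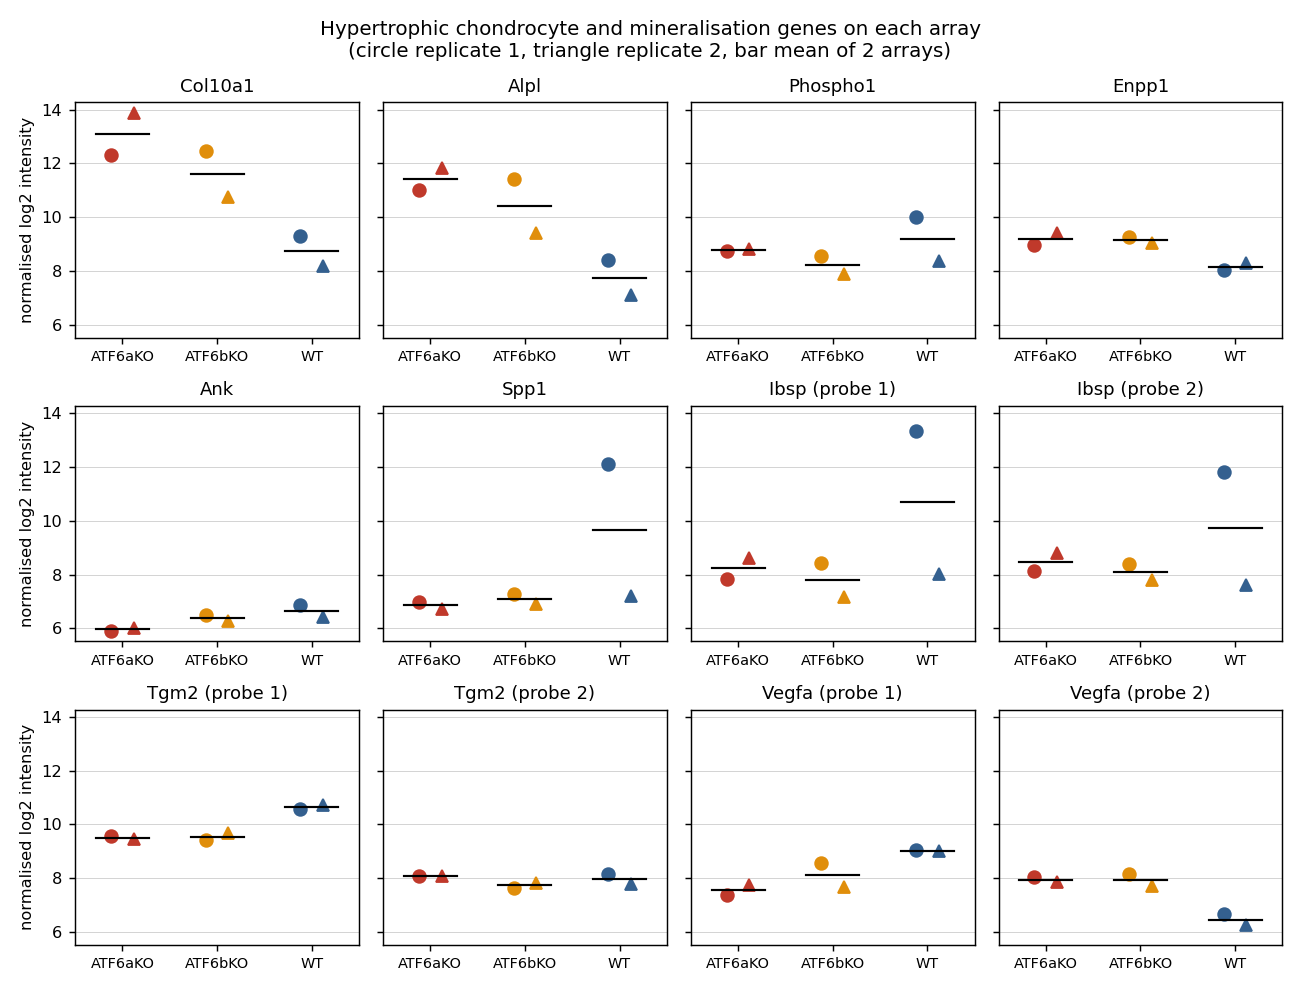
Normalised log2 intensity (y axis) of each of the 12 probes on every array, with ATF6aKO left, ATF6bKO in the middle and WT right; circles are replicate 1, triangles replicate 2 and bars the mean of 2 arrays. Col10a1, Alpl and Enpp1 sit higher on all 4 knockout arrays than on either WT array, whereas Spp1 and Ibsp are high on WT replicate 1 alone.

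Col10a1 encodes the chain of type X collagen, the network-forming collagen of the hypertrophic zone. Its level was 12.29 and 13.87 on the ATF6aKO arrays, 12.48 and 10.74 on the ATF6bKO arrays and 9.30 and 8.17 on the WT arrays. Every knockout array lay above both WT arrays, and ATF6bKO replicate 2 was the lowest of the knockouts. As spot intensities these were 4577 and 13546 (ATF6aKO), 4789 and 1231 (ATF6bKO) and 937 and 320 (WT). Col10a1 was 20.3-fold higher in ATF6aKO than in WT (13.08 ± 1.12 against 8.74 ± 0.80, SD, n = 2 each; log2 difference 4.35 ± 0.69 SE, adjusted p 0.00278, limma). That was the 3rd largest positive difference of all 19122 genes. In ATF6bKO it was 7.33-fold higher than in WT (11.61 ± 1.23 against 8.74 ± 0.80, SD, n = 2 each; log2 difference 2.87 ± 0.69 SE, adjusted p 0.0152, limma), rank 15 of all genes.

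The ATF6bKO call for Col10a1 was lost without ATF6bKO replicate 1 (log2 difference 2.01, adjusted p 0.0952) and with a trended, robust variance (adjusted p 0.110). The ATF6aKO difference was called whichever single array was left out, at 3.56 without ATF6aKO replicate 2 and 5.13 without ATF6aKO replicate 1. The sign was turned in the authors' deposited table, at -1.18 in ATF6aKO and -0.54 in ATF6bKO. Its knockout columns follow the unused green channel. There the Col10a1 spot gave 18 and 24 in ATF6aKO and 23 and 24 in ATF6bKO, none well above background. That table therefore cannot decide the sign. Replicates of a genotype lay far apart for this gene. Replicate 1 minus replicate 2 was -1.58 in ATF6aKO, 1.74 in ATF6bKO and 1.13 in WT, and 99.9%, 99.9% and 96.1% of all genes had a smaller gap.

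Alpl encodes tissue-nonspecific alkaline phosphatase, the vesicle enzyme that splits pyrophosphate and so removes a brake on mineral. It read 11.01 and 11.82 in ATF6aKO, 11.42 and 9.40 in ATF6bKO, against 8.40 and 7.10 in WT. All 4 knockout arrays again exceeded both WT arrays, with ATF6bKO replicate 2 closest to them. Alpl was 12.7-fold higher in ATF6aKO than in WT (log2 difference 3.66 ± 0.67 SE, adjusted p 0.00472) and 6.33-fold higher in ATF6bKO than in WT (2.66 ± 0.67 SE, adjusted p 0.0183). These differences ranked 10 and 26 among all genes in the positive direction. With a trended, robust variance neither held (adjusted p 0.0546 in ATF6aKO and 0.118 in ATF6bKO). The ATF6aKO call also went without ATF6aKO replicate 2 (log2 difference 3.26, adjusted p 0.0506), and the ATF6bKO call without ATF6bKO replicate 1 (1.65, adjusted p 0.0912). From the authors' deposited table the differences were 0.70 in ATF6aKO (adjusted p 0.579) and 1.1 in ATF6bKO (adjusted p 0.384), neither of them called.

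Col10a1 and Alpl tracked each other from array to array, with r of 0.988 over the 6 arrays. As a description, both were highest on ATF6aKO replicate 2 and lowest on WT replicate 2. Arrays of a genotype share a slide, so such an r also carries whatever separates the slides. Among all genes tested, Plekha1 and Plrg1 had the pattern most like Col10a1 (r of 0.998 each over 6 arrays), and Optc and Vezt the pattern most like Alpl (0.996 and 0.995). Optc encodes opticin, a small leucine-rich proteoglycan.

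**Figure D2:**
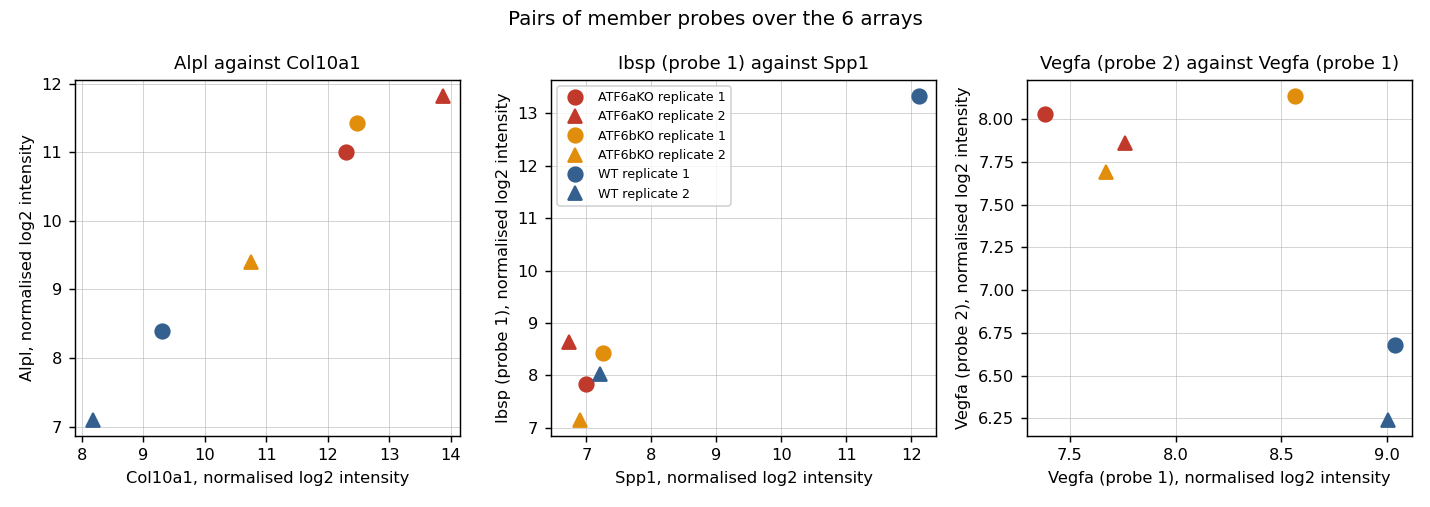
Pairs of probes over the 6 arrays, with normalised log2 intensity on both axes, colour for genotype and shape for replicate. Col10a1 and Alpl lie along a line through both knockouts and WT, Spp1 and Ibsp are set apart by WT replicate 1, and the Vegfa probes place the WT arrays at high values of probe 1 and low values of probe 2.

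The summed signal of cartilage markers was higher on the knockout arrays, though not that of every marker. The summed normalised intensity of 15 growth plate cartilage markers, led by Col2a1, the main collagen of cartilage, was 115730 and 128076 in ATF6aKO, 68964 and 32654 in ATF6bKO, against 19088 and 25131 in WT. Of these 15 markers 12 were higher and 1 lower in ATF6aKO than in WT, and 7 were higher and 2 lower in ATF6bKO, beside 42.7% and 37.6% of all genes called in either direction. Col2a1 itself read 15.06 and 15.36, 14.51 and 13.25, and 10.88 and 11.15 in the same order of genotypes. Col11a2 went the other way, at 9.43 and 9.51, 9.09 and 8.57, and 10.51 and 10.23. Comp was lower than in WT in ATF6bKO only, at 12.51 and 11.38 against 12.87 and 13.27. On ATF6bKO replicate 2, Col9a3 and Chad also read below both WT arrays. Col11a2, Comp, Col9a3 and Chad were chosen after their values were seen. Slc13a5, a citrate transporter, led the hypertrophic chondrocyte list. Of the 8 markers on that list other than Col10a1 and Alpl, 3 were higher and 1 lower in ATF6aKO than in WT, and 1 was higher and 1 lower in ATF6bKO. Their sums were 8604 and 9506 in ATF6aKO, 6801 and 4757 in ATF6bKO, against 7816 and 6422 in WT, so these sums overlapped between ATF6bKO and WT. The part of cartilage content in the Col10a1 and Alpl differences was not tested, and in a dissected tissue a different share of cells and a different amount of RNA per cell cannot be told apart.

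Enpp1, the ectoenzyme that makes pyrophosphate from nucleotides outside the cell and so opposes Alpl, was higher in both knockouts as well. It read 8.98 and 9.41 in ATF6aKO, 9.25 and 9.03 in ATF6bKO, against 8.02 and 8.29 in WT. The knockout arrays lay close together and all above WT. Enpp1 was 2.05-fold higher in ATF6aKO (log2 difference 1.04 ± 0.21 SE, adjusted p 0.00664) and 1.97-fold higher in ATF6bKO (0.98 ± 0.21 SE, adjusted p 0.00953). Before normalisation the spots were 461 and 562 in ATF6aKO, 484 and 378.5 in ATF6bKO, against 345.5 and 354 in WT, a smaller step than after it. Without ATF6bKO replicate 1 the ATF6bKO difference was 0.87 (adjusted p 0.0756). In the authors' deposited table neither call held, at 0.65 in ATF6aKO (adjusted p 0.337) and 0.25 in ATF6bKO (adjusted p 0.709). Aadacl3 and Rbbp5 had the pattern most like it (r of 0.998 each over 6 arrays).

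Ank, the membrane protein that lets pyrophosphate leave the cell, was dim throughout. It read 5.92 and 6.01 in ATF6aKO, 6.50 and 6.29 in ATF6bKO, against 6.89 and 6.43 in WT. Its spot was not well above background on either ATF6aKO array (41.5 and 45, over a background of 36 on each) or on ATF6bKO replicate 2 (51 over 35), so only a bound can be given for ATF6aKO. The probe was tested only because both WT arrays were well above background, so its lower value in ATF6aKO is a description. With the ATF6aKO level set at the floor of detected probes, it was at least 1.48-fold lower than in WT, a bound that holds for the main normalisation only. The adjusted p of 0.0262 (limma) belongs to the measured log2 difference of -0.69 and not to this bound. The ATF6bKO difference of -0.26 ± 0.20 SE did not pass (adjusted p 0.328). Under 75th percentile scaling the ATF6aKO difference was -0.33 with adjusted p 0.214, and that for ATF6bKO was 0.17. Leaving out either ATF6aKO array (adjusted p 0.0950 without replicate 1, 0.0831 without replicate 2) or WT replicate 1 (0.113) also ended the ATF6aKO call. Mypn and Gpr176 had the pattern most like it (0.987 and 0.978).

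Phospho1, the phosphatase that frees phosphate inside matrix vesicles, did not follow Alpl. It read 8.73 and 8.80 in ATF6aKO, 8.57 and 7.89 in ATF6bKO, against 10.02 and 8.38 in WT. WT replicate 1 was the highest array, and WT replicate 2 lay among the knockouts. The log2 difference was -0.44 ± 0.48 SE in ATF6aKO (adjusted p 0.486) and -0.97 ± 0.48 SE in ATF6bKO (adjusted p 0.149), and neither passed. Without WT replicate 2 they were -1.26 (adjusted p 0.00655) and -1.79 (adjusted p 0.00128), and without WT replicate 1 they were 0.38 and -0.15. Its correlation with Alpl over the 6 arrays was -0.10, and with the first Ibsp probe 0.953. Trir and Rpe had the pattern most like it (0.989 and 0.987).

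**Figure D3:**
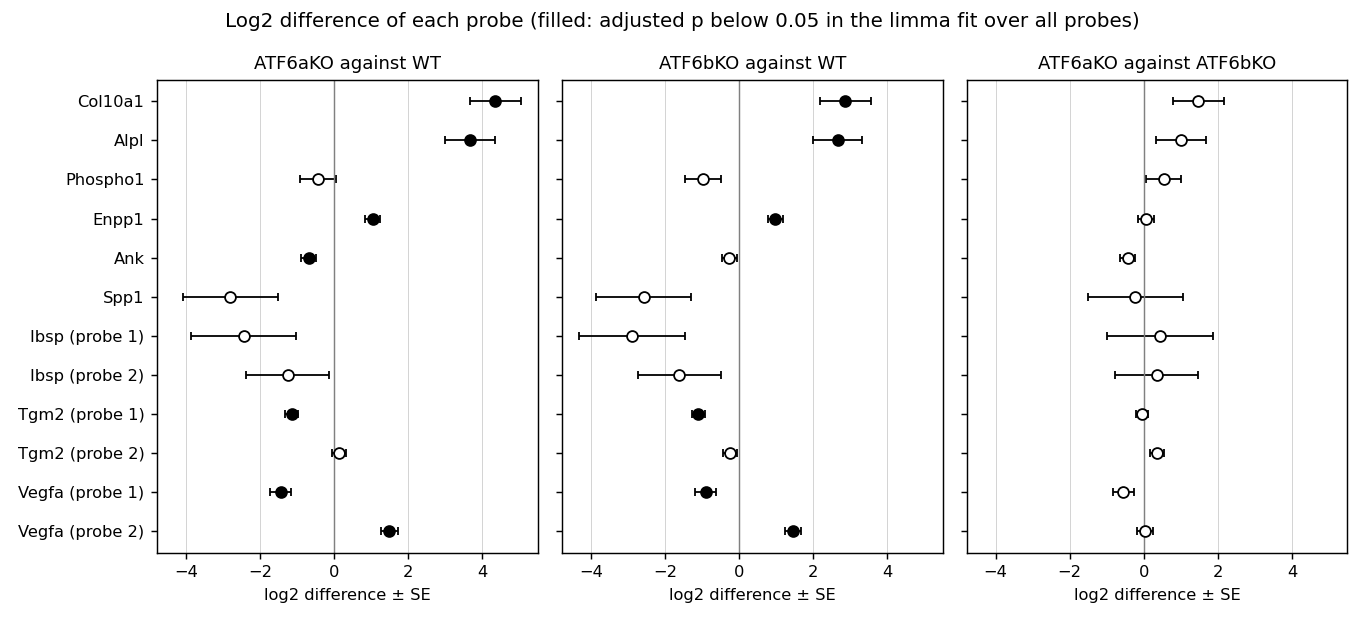
Log2 difference (x axis) of each probe with its standard error (bars) in ATF6aKO against WT, ATF6bKO against WT and ATF6aKO against ATF6bKO; filled points passed the adjusted p threshold. Col10a1 and Alpl lie farthest right in both comparisons with WT, the Spp1 and Ibsp bars are the widest, and no point is filled between the knockouts.

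Spp1 (osteopontin) and Ibsp (bone sialoprotein) encode acidic, integrin-binding glycoproteins made where cartilage gives way to bone, the first known to slow crystal growth and the second to seed it. Spp1 read 6.99 and 6.73 in ATF6aKO, 7.26 and 6.91 in ATF6bKO, against 12.12 and 7.21 in WT. The first Ibsp probe read 7.83 and 8.63 in ATF6aKO, 8.42 and 7.16 in ATF6bKO, against 13.33 and 8.02 in WT. The second Ibsp probe read 8.12 and 8.78, 8.40 and 7.81, and 11.83 and 7.59 in the same order. WT replicate 1 alone was high, and WT replicate 2 lay at the level of the knockouts. In spot intensity the first Ibsp probe gave 203 and 322 in ATF6aKO, 271.5 and 99 in ATF6bKO, against 14329.5 and 286 in WT.

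The pair of WT arrays differed by 4.91 in Spp1 and by 5.31 in the first Ibsp probe, and 99.95% and 99.96% of all genes had a smaller gap. The log2 difference of Spp1 was -2.80 ± 1.28 SE in ATF6aKO against WT and -2.58 ± 1.28 SE in ATF6bKO against WT, and neither passed (adjusted p 0.113 and 0.151). For Ibsp the log2 differences were -2.45 ± 1.43 SE and -2.89 ± 1.43 SE (adjusted p 0.200 and 0.150), and for its second probe -1.26 and -1.61 (adjusted p 0.392 and 0.294). By size these are among the most negative of all genes, with Spp1 at rank 16 and Ibsp at rank 36 from the bottom in ATF6aKO, and Ibsp at rank 10 and Spp1 at rank 27 in ATF6bKO.

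A single WT array decided both genes. Without WT replicate 2, which leaves WT replicate 1 as the sole WT array with the spread taken from the knockouts, Spp1 was -5.26 in ATF6aKO (adjusted p 2.5e-06) and -5.03 in ATF6bKO (adjusted p 2.6e-06), and Ibsp was -5.10 and -5.55 (adjusted p 0.000102 and 7.2e-05). Without WT replicate 1, Spp1 was -0.35 and -0.12 and Ibsp 0.21 and -0.23, none of them past the threshold. The second Ibsp probe was then 0.86 in ATF6aKO (adjusted p 0.0483) and 0.51 in ATF6bKO.

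The type I collagen chains of bone were high on that array too. The summed intensity of 9 measured osteoblast and osteocyte markers, led by Col1a2, a chain of the main bone collagen, came to 4031 and 4529 in ATF6aKO, 2966 and 2453 in ATF6bKO, against 83430 and 3037 in WT. Col1a2 read 11.08 and 11.46 in ATF6aKO, 9.89 and 9.53 in ATF6bKO, against 16.02 and 8.62 in WT. Col1a1, its partner chain, read 7.18 and 6.81 in ATF6aKO, 6.70 and 6.33 in ATF6bKO, against 13.65 and 6.74 in WT. Not every marker stood out there, and on WT replicate 1 Sost read 6.43, Mepe 6.82, Col5a2 6.85 and Pdpn 7.86. Sost and Mepe were dim, well above background on 4 and 5 of the 6 arrays. Bglap2 (10.56 and 10.22 in WT) and Ifitm5 (9.99 and 9.22) read higher on both WT arrays than on any knockout array. Mepe did so too, while Pdpn read lower on both WT arrays than on any knockout array. Sost, Mepe, Col5a2, Pdpn and Ifitm5 were chosen after their values were seen. Of these 9 markers none was higher and 3 were lower in each knockout than in WT, where 22.3% (ATF6aKO) and 20.3% (ATF6bKO) of all genes were lower. The summed intensity of 12 osteoclast markers, led by the integrin chain Itgb3, came to 8569 and 7908 in ATF6aKO, 8328 and 8107 in ATF6bKO, against 22759 and 7937 in WT. Of these 12 markers 2 were higher and 2 lower in ATF6aKO than in WT, and 2 were higher and 1 lower in ATF6bKO. Itgb3 read 11.54 and 11.64 on the WT arrays, while Mmp9 read 13.23 and 7.87, Acp5 12.08 and 7.68 and Ctsk 10.10 and 6.40 there. Dcstamp and Tnfrsf11a read higher on all 4 knockout arrays than on either WT array. Mmp9, Acp5, Ctsk, Dcstamp and Tnfrsf11a were chosen after their values were seen. The part of bone tissue in the Spp1, Ibsp and Phospho1 values was not tested.

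Spp1 and Ibsp lie near each other on chromosome 5, and the RefSeq table of GRCm38.p6 places a single protein-coding gene, Mepe, between them. Mepe, another acidic phosphoglycoprotein of bone, read 6.48 and 6.34 in ATF6aKO, 6.32 and 6.34 in ATF6bKO, against 6.82 and 6.93 in WT, without the excess on WT replicate 1. It was chosen after its values were seen. Over the 6 arrays Spp1 followed the first Ibsp probe with r of 0.970, and the Ibsp probes followed each other with 0.982. Hexa and Ctsz, which encode lysosomal enzymes, had the pattern most like Spp1 (0.995 each), and Mmp2 and Bmi1 the pattern most like Ibsp (0.993 and 0.987). Each of these values rests on WT replicate 1 as its far point.

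**Figure D4:**
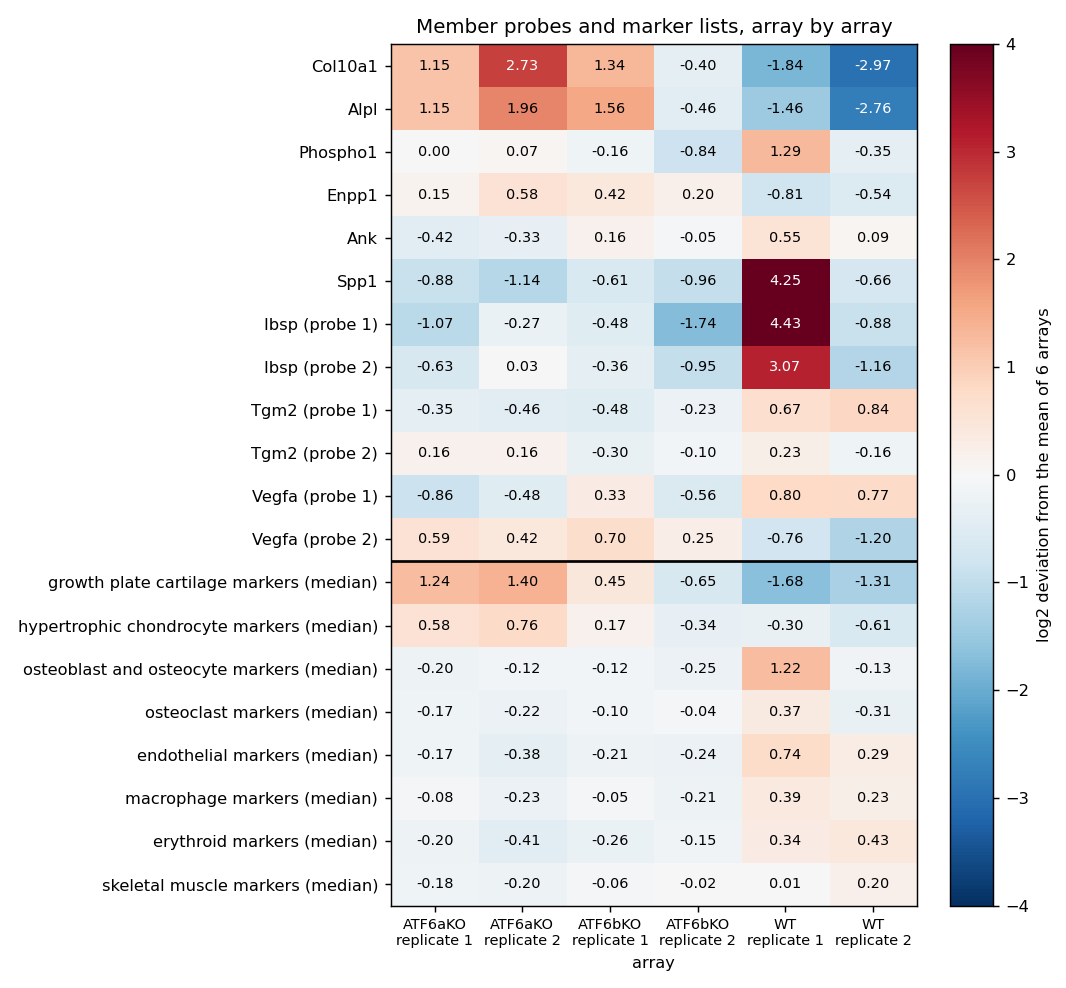
Deviation of each probe, and median deviation of each marker list, from its own mean over the 6 arrays (colour and printed value, log2), with ATF6aKO left, then ATF6bKO, then WT; the colour scale ends at 4 on either side. Spp1 (4.25) and the first Ibsp probe (4.43) on WT replicate 1 stand beside an osteoblast and osteocyte median of 1.22, and Col10a1 and Alpl run with the cartilage markers.

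Tgm2 encodes tissue transglutaminase, which crosslinks matrix proteins, osteopontin among its substrates. The first probe read 9.55 and 9.44 in ATF6aKO, 9.42 and 9.67 in ATF6bKO, against 10.56 and 10.74 in WT. All 4 knockout arrays lay within a narrow band below both WT arrays. By this probe Tgm2 was 2.23-fold lower in ATF6aKO (log2 difference -1.15 ± 0.17 SE, adjusted p 0.00221) and 2.15-fold lower in ATF6bKO (-1.10 ± 0.17 SE, adjusted p 0.00308). The second probe, for the same transcript accession, read 8.10 and 8.10 in ATF6aKO, 7.63 and 7.84 in ATF6bKO, against 8.17 and 7.77 in WT. It overlapped WT in both comparisons, with log2 differences of 0.13 (adjusted p 0.608) and -0.23 (adjusted p 0.363), and the 2 probes correlated at 0.081. In the authors' deposited table the first probe was -0.95 in ATF6aKO (adjusted p 0.178), not called, and -2.10 in ATF6bKO (adjusted p 0.0211). With probes averaged, the log2 difference was -0.51 in ATF6aKO (adjusted p 0.0337) and -0.67 in ATF6bKO (adjusted p 0.0151). Ppp1r1a and G6bos had the pattern most like the first probe (0.999 each).

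Vegfa encodes vascular endothelial growth factor A, the signal of hypertrophic cartilage that calls in vessels, and its probes disagreed in direction. The first, for transcript NM_001025257, read 7.38 and 7.76 in ATF6aKO, 8.56 and 7.67 in ATF6bKO, against 9.04 and 9.01 in WT. The second, for transcript NM_001025250, read 8.03 and 7.86 in ATF6aKO, 8.14 and 7.69 in ATF6bKO, against 6.68 and 6.24 in WT. All knockout arrays lay below WT by the first probe and above WT by the second, and the 2 correlated at -0.756. The second probe was dim in WT, with spots of 97.5 and 43.75 over backgrounds of 15.5 and 16, though marked well above background.

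By the first probe Vegfa was 2.73-fold lower in ATF6aKO (log2 difference -1.45 ± 0.29 SE, adjusted p 0.00680) and 1.87-fold lower in ATF6bKO (-0.90 ± 0.29 SE, adjusted p 0.0441). By the second it was 2.80-fold higher in ATF6aKO (1.49 ± 0.22 SE, adjusted p 0.00241) and 2.74-fold higher in ATF6bKO (1.45 ± 0.22 SE, adjusted p 0.00313). With probes averaged the differences were 0.02 and 0.27, neither past the threshold (adjusted p 0.957 and 0.386), so no direction can be given for the gene. The ATF6bKO call of the first probe was lost in 7 of 14 alternatives, among them the removal of ATF6bKO replicate 2 (-0.46, adjusted p 0.229) or of either WT array (adjusted p 0.0615 without WT replicate 1, 0.0590 without WT replicate 2), and its sign turned in 2 more. The ATF6aKO call of this probe was not made from the authors' deposited table either (-0.60, adjusted p 0.584). Krt222 and Ednrb had the pattern most like the first probe (0.999 and 0.994). In the fit over all named probes, 7 of the 12 probes passed in ATF6aKO and 6 of 12 in ATF6bKO, where 41.9% and 36.5% of all named probes passed.

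The comparison of ATF6aKO with ATF6bKO lies within a slide, where ATF6aKO occupied row 1 and ATF6bKO row 2, so row and genotype cannot be told apart. None of the 9 genes passed, and none had an unadjusted p under 0.05. No gene of the 19122 was called (0%), and 6.11% had an unadjusted p under 0.05. The largest difference among the 9 was in Col10a1, 2.77-fold higher in ATF6aKO (log2 difference 1.47 ± 0.69 SE, adjusted p 0.837), with overlapping arrays. Alpl differed by 1.003 ± 0.67 SE (adjusted p 0.909), Phospho1 by 0.53 ± 0.48 SE and Enpp1 by 0.06 ± 0.21 SE. Spp1 differed by -0.22 ± 1.28 SE, Ibsp by 0.44 ± 1.43 SE, Tgm2 by -0.05 ± 0.17 SE and Vegfa by -0.55 ± 0.29 SE. The arrays of Phospho1 stood wholly higher in ATF6aKO and those of Ank wholly lower, where 36.9% of all genes had arrays apart, 20.1% higher and 16.9% lower. For Ank no size is given, since both ATF6aKO arrays and ATF6bKO replicate 2 were not well above background. For Spp1 and Ibsp the standard errors carry the spread of the WT arrays, since all 6 arrays entered the fit.

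Other genes of the pathway were taken from a list of 72, of which 66 were measured. In ATF6aKO against WT, 24 were called, 12 higher and 12 lower (median log2 difference 0.19), where 42.7% of all genes were called. In ATF6bKO against WT, 20 were called, 5 higher and 15 lower (median -0.04), where 37.6% of all genes were called. None passed between the knockouts. The balance of directions depended on single arrays and on the processing. In ATF6aKO it was 21 higher and 8 lower without WT replicate 1, 9 and 15 without WT replicate 2, and 16 and 7 with the replicate number as a block. In ATF6bKO it was 10 higher and 12 lower without WT replicate 1, 9 and 12 with 75th percentile scaling, and 18 and 13 from the authors' deposited table. Without ATF6aKO replicate 2 the ATF6aKO count was 14, and without ATF6bKO replicate 1 or 2 the ATF6bKO count was 8 or 10.

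The groups of the list are set beside the shares over all genes, 20.3% higher and 22.3% lower in ATF6aKO and 17.3% higher and 20.3% lower in ATF6bKO. Among 20 regulators of hypertrophy, 5 were higher and 2 lower in ATF6aKO, and 2 higher and 3 lower in ATF6bKO. Ihh, the hedgehog signal of prehypertrophic cells, read 9.26 and 9.41 in ATF6aKO, against 7.17 and 7.59 in WT, a log2 difference of 1.95 (adjusted p 0.00203). In ATF6bKO its log2 difference was 1.28 (adjusted p 0.0110). Bmp2, a growth factor that promotes hypertrophy, read 7.83 and 7.99 in ATF6bKO, against 6.98 and 6.86 in WT, a log2 difference of 0.99 (adjusted p 0.00379), and in ATF6aKO the difference was 1.07 (adjusted p 0.00246). Pth1r, the receptor through which parathyroid hormone-related protein delays hypertrophy, was lower in both, with log2 differences of -1.66 in ATF6aKO (adjusted p 0.00447) and -2.63 in ATF6bKO (adjusted p 0.00118).

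Among 15 genes of phosphate, pyrophosphate and vesicle handling, 3 were higher and 3 lower in ATF6aKO, and 1 higher and 5 lower in ATF6bKO. Slc20a1, a phosphate importer, was higher in both, by 1.29 in ATF6aKO (adjusted p 0.00182) and 0.92 in ATF6bKO (adjusted p 0.00736). Abcc6, a transporter needed for pyrophosphate supply, was lower in both, with log2 differences of -1.31 in ATF6aKO (adjusted p 0.00239) and -1.13 in ATF6bKO (adjusted p 0.00477). Anxa6, an annexin of matrix vesicles, had log2 differences of -0.12 in ATF6aKO (adjusted p 0.643), not called, and -1.22 in ATF6bKO (adjusted p 0.00319). Of the 10 partners of the acidic glycoproteins, none was higher, and 3 were lower in ATF6aKO and 2 in ATF6bKO. Bglap2, an osteocalcin gene whose close copies can share probe signal, led them, with log2 differences of -1.78 (adjusted p 0.00177) and -1.36 (adjusted p 0.00545).

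Among 12 network collagens, transglutaminases and matrix genes, 4 were higher and 1 lower in ATF6aKO, and 1 higher and 2 lower in ATF6bKO. F13a1, the factor XIII transglutaminase that hypertrophic chondrocytes also make, was 4.56-fold higher in ATF6aKO (9.09 and 9.44 against 7.12 and 7.02 in WT, adjusted p 0.000498) and 3.26-fold higher in ATF6bKO (8.80 and 8.75, adjusted p 0.000994). Tgm3, an epidermal transglutaminase, was 3.18-fold lower in ATF6aKO (adjusted p 0.00178) and 2.94-fold lower in ATF6bKO (adjusted p 0.00271). Tgm2 and Tgm3 thus read lower, and F13a1 higher, in both knockouts, by the brightest probe of each. The second Tgm2 probe was called in neither knockout. Nor was Tgm1, chosen after its values were seen, with log2 differences of -0.13 in ATF6aKO (adjusted p 0.668, limma) and -0.0047 in ATF6bKO (adjusted p 0.990, limma).

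Of 9 other VEGF ligands and receptors, none was higher and 3 were lower in ATF6aKO, and 1 was higher and 3 lower in ATF6bKO. Kdr, the main endothelial receptor of VEGF-A, read 9.79 and 9.35 in ATF6aKO, 9.65 and 9.77 in ATF6bKO, against 10.66 and 10.96 in WT. It was 2.37-fold lower in ATF6aKO (adjusted p 0.00320) and 2.15-fold lower in ATF6bKO (adjusted p 0.00595). Flt1, a receptor that also acts as a VEGF trap, was 1.45-fold higher in ATF6bKO (adjusted p 0.0311), and its log2 difference in ATF6aKO was 0.25 (adjusted p 0.225), not called. The 12 endothelial markers, led by the same Kdr, summed to 2926 and 2453 in ATF6aKO, 2732 and 2891 in ATF6bKO, against 5825 and 5021 in WT. Of them 7 were lower in ATF6aKO and 5 in ATF6bKO, and none was higher, where 22.3% and 20.3% of all genes were lower. The part of endothelial content in the Vegfa values was not tested.

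The 12 skeletal muscle markers, led by Tnni2, had median deviations from their own mean between -0.20 and 0.20 on every array. For the 11 macrophage markers, led by Itgam, they were -0.08 and -0.23 in ATF6aKO, -0.05 and -0.21 in ATF6bKO, against 0.39 and 0.23 in WT. For the 9 erythroid markers, led by Ermap, these medians were -0.20 and -0.41 in ATF6aKO, -0.26 and -0.15 in ATF6bKO, against 0.34 and 0.43 in WT. Of the 11 macrophage markers 1 was higher and 6 lower in ATF6aKO than in WT, and 1 was higher and 5 lower in ATF6bKO. Of the 9 erythroid markers 2 were higher and 4 lower in each knockout, and Hba-a1, an alpha globin gene chosen after its values were seen, read 7.75 and 7.40 in ATF6aKO, 7.98 and 7.71 in ATF6bKO, against 14.81 and 11.76 in WT. Of the 12 muscle markers 2 were higher and 3 lower in each knockout. Over all genes 20.3% were higher and 22.3% lower in ATF6aKO, and 17.3% higher and 20.3% lower in ATF6bKO. The part of blood, macrophage and muscle content in the values of the 9 genes was not tested.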

How the data were processed

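Total RNA was amplified by whole-transcriptome amplification and labelled as Cy5 cDNA, per the labels' protocols. The authors deposited scanner files with a median intensity per spot. The submitters' processing notes name Agilent Feature Extraction 10.7.1.1. The red channel was used for the knockouts, whose protocol was set for Cy5 only per the file headers. For WT the only channel was used, which is named green although the labels give Cy5. The authors' deposited value table holds log2 values whose knockout columns follow the green channel (r of at least 0.998 between arrays, against at most 0.0673 for red). Its scale matches log2 signal, its centring per array and probe is unknown (column medians 0.2, 0.1, 0, 0.227, -0.5 and -0.5 for ATF6aKO, ATF6bKO and WT), and it served only as an alternative.

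Median spot intensity was background-corrected by normexp on the median background (offset 50, limma 3.58.1, R 4.3.3), and taken to log2. Control spots and 288 probes marked as outliers were left out, spots of a probe averaged and arrays quantile normalised. RefSeq accessions in the files matched 26582 of 55681 probes to 20145 symbols. A probe was kept where both arrays of any genotype were well above background, and the brightest stood for a gene. One limma model over the 6 arrays, tested on simulated data, gave the 3 comparisons. The number of arrays limits the precision.

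The 9 genes, the related genes and the marker lists were chosen with earlier results of these data known. Genes named are the 9 with every probe, the gene of smallest p in each direction per related list and comparison, the 2 genes of highest correlation with each of the 9 (clone-like symbols passed over), and the brightest gene of each marker list.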

Additional observations from a re-analysis of the deposited data

Results flagged for a closer look

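The knockout arrays were also scanned in the green channel, to which the labels assign no knockout sample. These green values entered the comparisons above only through the authors' deposited table. In that channel a few of the 12 probes were marked well above background, over backgrounds of 13 to 15. The Ank spot gave 38.0 on ATF6aKO replicate 1, 30.0 on ATF6aKO replicate 2 and 43.0 on ATF6bKO replicate 1, beside red values of 41.5, 45 and 66. The Spp1 spot gave 40.0 on ATF6aKO replicate 1 and 39.0 on ATF6bKO replicate 1, beside red values of 109 and 120. The second Vegfa probe gave 31.5 on ATF6aKO replicate 1 and 35.0 on ATF6bKO replicate 1, beside red values of 237.5 and 224. Over all probes the green channel was well above background for 11.4% and 9.59% on the ATF6aKO arrays and 12.5% and 8.45% on the ATF6bKO arrays. No array without sample offers a control level for this channel. No gene was tested for single distant samples, since each genotype had 2 arrays.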

How the results depend on the processing

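With 2 arrays per genotype, single arrays moved many counts, and an array left alone in its genotype is assumed to vary like the others. Tgm2 in ATF6bKO, tested by its brighter probe (14 alternatives, probe averaging among them), kept sign and call under all of them. So did the second Vegfa probe in both knockouts (13 alternatives), although its WT spots were dim. Its size moved with the processing: the log2 difference in ATF6aKO was 1.485 as reported and 2.685 with the processed signal. The second Tgm2 probe was not called in ATF6bKO (log2 difference -0.23, adjusted p 0.363, limma). In ATF6aKO against WT, leaving out 1 array gave 4 to 9 called genes of the 9 (6 with all arrays), 6 to 11 called probes (7), 14 to 29 related genes (24) and 4682 to 8061 of all genes (8157). In ATF6bKO against WT it gave 2 to 7 genes (5), 3 to 9 probes (6), 8 to 22 related genes (20) and 3080 to 7019 of all genes (7190). Between the knockouts it gave 0 to 8 of all genes, the 8 without ATF6aKO replicate 2. A trended, robust variance left 3 of the 9 in ATF6bKO, where it called 7471 of all 19122 genes. The authors' table called 1 gene of the 9 and 2 probes in ATF6aKO, where it called 9717 of all 19122 genes. In ATF6bKO it called 2 genes of the 9, 3 probes and 31 of 66 related genes, where it called 9894 of all genes. The cause of these shifts was not tested. The knockout columns of the authors' table follow the green channel, to which the labels assign no knockout sample. Comparisons drawn from that table therefore cannot decide these results. There Col10a1 was -1.18 (ATF6aKO), -0.54 (ATF6bKO) and -0.64 (between knockouts), Ank 5.50 and 5.55 and Spp1 1.22 and 1.60 against WT. In ATF6bKO against WT the table gave Vegfa as 0.45 and the second Tgm2 probe as 0.05, and between knockouts Alpl as -0.40, Phospho1 as -0.45, Tgm2 as 1.15 and the second Vegfa probe as -1.20. Averaging probes turned Vegfa to 0.018 and 0.27 against WT and Tgm2 to 0.16 between knockouts, and the processed signal turned the second Vegfa probe to -0.020 between knockouts. Scaling to the 75th percentile turned Ank to 0.17 in ATF6bKO. It moved the median of all genes to 0.13 (ATF6aKO) and 0.16 (ATF6bKO), and all calls to 5163 higher and 3601 lower in ATF6aKO (3886 and 4271 as reported) and 4828 and 3053 in ATF6bKO (3313 and 3877). Single arrays left out turned some signs. The ranges in ATF6aKO against WT were -1.26 to 0.38 for Phospho1, -5.10 to 0.21 for Ibsp, -3.38 to 0.86 for its second probe and -0.070 to 0.33 for the second Tgm2 probe, and in ATF6bKO against WT -3.73 to 0.51 for the second Ibsp probe. Between knockouts they were -0.0057 to 2.01 for Alpl, -0.16 to 0.27 for Enpp1, -0.19 to 1.08 for Ibsp, -0.18 to 0.073 for Tgm2 and -0.19 to 0.26 for the second Vegfa probe.

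The main model did not pair the arrays by replicate number. On the knockout slide, replicate 1 of each genotype lay in column 2 and replicate 2 in column 4. The replicate differences of the genotypes correlated at -0.156 (ATF6aKO with ATF6bKO), -0.0743 (ATF6aKO with WT) and 0.197 (ATF6bKO with WT) over all genes. These weak correlations cannot exclude a pairing by replicate number. With the number as a replicate block, 6 genes of the 9 were called in ATF6aKO against WT, 4 in ATF6bKO against WT and 0 between knockouts, and 7594, 6630 and 0 of all genes. The gene no longer called was Vegfa in ATF6bKO (adjusted p 0.0591). Ank lay near background, so only a bound could be given for it in ATF6aKO.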
